A study of Mus musculus with 16 samples.

Results

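The effect of castration was compared between 2 neighbouring segments of the male mouse reproductive tract, the efferent duct and the caput epididymis. For each gene the quantity examined was a difference of differences: the log2 change from sham surgery to castration in the efferent duct, minus the same change in the caput. A value above 0 means that castration raised the gene more, or lowered it less, in the duct than in the caput. The comparison used 8 of the 16 arrays of the series, 2 in each of 4 groups: sham-castrated efferent duct, castrated efferent duct, sham-castrated caput and castrated caput. Genes were taken into it when all 4 group means of log2 intensity lay above a floor of 16, which left 11407 of 18194 genes. At that limit Adamdec1 was just inside, with 16.01 and 8.58 on the sham efferent duct arrays, and Fcrls was just outside, with 15.98 and 2.73 on the castrated efferent duct arrays.

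All animals were adult male 129BL/6 mice. They recovered for 14 days after castration or sham surgery, all received the same vehicle, 100 µL of sesame oil with 10% ethanol, and tissue was taken 12 hours after the injection. The series text says that both tissues were collected from each sample, but not that equal array numbers mark the same animals, nor that the duplicates are separate animals. The p-values therefore measure the spread between these arrays, which may be technical. Efferent duct RNA (50 ng) was amplified and labelled with NuGEN's Ovation system and caput RNA (10 µg) with the Affymetrix One-Cycle kit. Differences in level between tissues therefore cannot be told apart from the kit. Apart from a check of tissue identity, only changes within a tissue were compared across them. Whether the kits also alter the size of a change was not tested.

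The efferent ducts carry sperm and fluid from the testis to the epididymis, and their epithelium of multiciliated and absorptive cells takes up most of that fluid. The caput is the first main part of the epididymis, where principal cells secrete proteins onto maturing sperm. Castration removes testicular androgen, and with it the sperm, fluid and factors in the lumen that reach the initial segment from the testis. Androgen regulates much of the caput, while the efferent ducts are also known for high estrogen receptor alpha.

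The labelled tissues were checked against their defining genes. Slc9a3, the sodium/proton exchanger of the absorptive epithelium, read 507 and 513 on the sham duct arrays and 35.1 and 24.1 on the sham caput arrays. Lrp2 and Esr1 were also far higher on the sham duct arrays, while Foxj1 separated the tissues much less (values below). Rnase10, a secreted protein of the proximal epididymis, read 10312 and 9692 on the sham caput arrays but 7.52 and 386 on the sham duct arrays. The efferent duct arrays were thus not alike. Sham array 2 carried caput transcripts that sham array 1 lacked, among them Lcn8 at 1126 against 15.5, Gpx5 at 576 against 27.3 and Defb15 at 694 against 21.8. Not all caput genes differed in this way: Adam7, also fixed for this check, and Lcn5 were high on both sham duct arrays (values below). Another set differed between the castrated duct arrays, with Spink8 at 1604 on array 1 and 135 on array 2, and Cst12 at 794 and 57.0. In the caput, sham array 1 had more sperm transcripts (summed list 11773 against 3810) and castrated array 2 more adipocyte transcripts (7657 against 2919). Efferent duct arrays also had the stronger 3′ bias, with a log2 ratio of 3′ to 5′ actin probe sets of 3.11 to 3.87 against 0.64 to 1.02 in the caput, the highest on castrated duct array 1. Over the 18194 genes, 23 were more than 2 log2 units higher on efferent duct sham array 2 than on array 1 and 4 the other way, and between the castrated duct arrays 19 were higher on array 1 and 8 on array 2. In the caput 31 were higher on sham array 1 and 9 on sham array 2, and 8 and 9 on castrated arrays 1 and 2. Bulk RNA cannot separate fewer cells of a type from less RNA per cell.

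**Figure D1:**
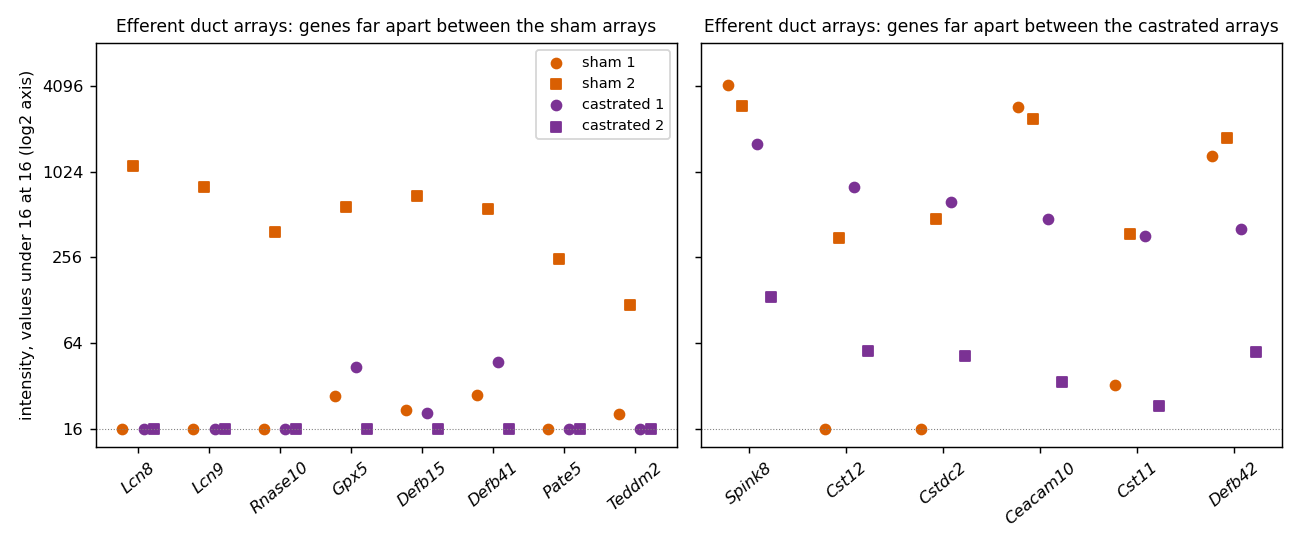
Intensity on the 4 efferent duct arrays (log2 axis, values under 16 drawn at 16) of genes that stood far apart between duplicates, chosen after their values were seen. Lcn8 read 1126 on sham array 2 and lay at about the floor on the other 3 arrays, while Spink8 read 1604 on castrated array 1 and 135 on castrated array 2.

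The results resting on these arrays are therefore given with and without them. For Lcn8, a lipocalin of the initial segment, caput intensity went from 9350 and 8970 to 63.7 and 28.6, and the difference was 4.69 on the log2 scale (SE 2.30) with a limma adjusted p of 0.256. Without efferent duct sham array 2 it was 7.75 with an adjusted p of 0.00428.

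The castration effect differed between the tissues for 747 of the 11407 genes, 6.55% (limma, Benjamini-Hochberg adjusted p under 0.05). Of these, 253 (2.22% of the genes tested) had a higher value in the duct and 494 (4.33%) a lower one. Within the tissues, 906 genes (7.94%) passed in the duct, 328 higher (2.88%) and 578 lower (5.07%) after castration. In the caput 2581 (22.6%) passed, 1652 higher (14.5%) and 929 lower (8.14%). These shares over all genes tested are the background for the counts of each gene list below. The 747 genes were mostly those that moved in the caput: 473 passed there and not in the duct, 152 in the duct and not in the caput, 54 in both in opposite directions, 30 in both in the same direction by different amounts, and 38 in neither. Across all genes tested, 354 passed in both tissues in the same direction (220 lower, 134 higher). Across genes the duct and caput changes had a Pearson correlation of 0.37, given as a description since the genes share arrays. The number of arrays limits the precision. The 95% interval of the difference had a median half-width of 0.65 on the log2 scale, against 0.46 for a change within a tissue. The model shares 1 spread per gene over the 4 groups, so 0.46 holds for both tissues alike. Duplicates lay further apart in the duct (median gap 0.28 castrated, 0.21 sham) than in the caput (0.15 and 0.14). Intervals may therefore be too narrow for the duct and too wide for the caput.

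**Figure D2:**
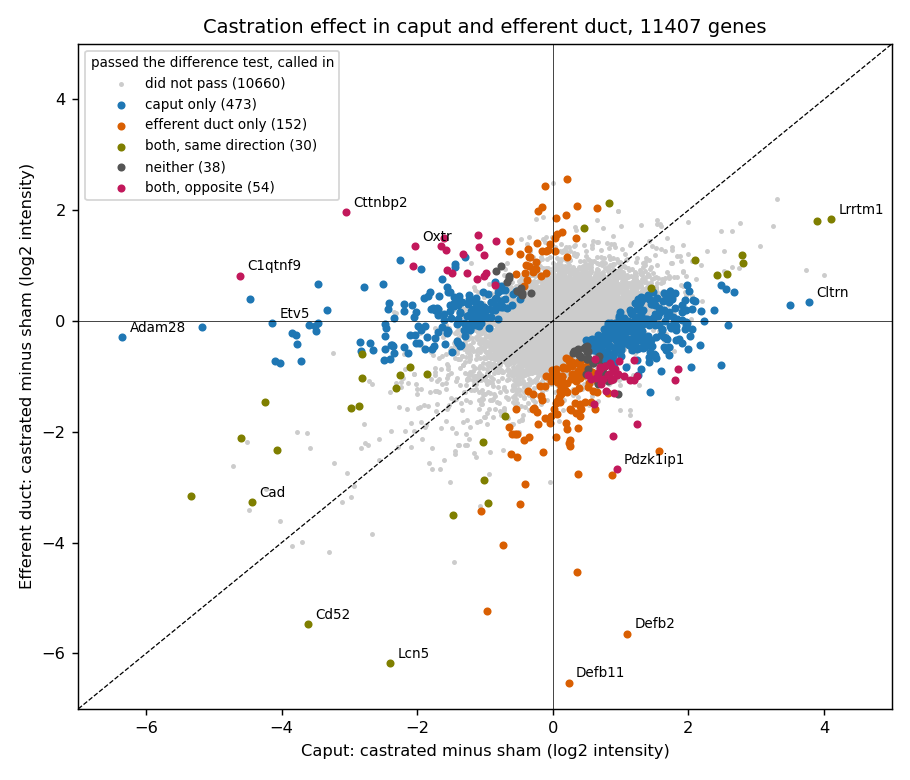
Log2 change from sham to castrated in the caput (x axis) and in the efferent duct (y axis), 1 point a gene, 11407 genes; colours mark the 747 genes past the test of the difference by the tissues in which the change itself passed, and the dashed line marks equal change. Most coloured points lie along the x axis (473 caput only), with Defb11 and Defb2 far below it and the 54 opposite genes in the upper left and lower right.

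The split between higher and lower depended on scaling, and the number of calls changed with the array left out. Leaving out 1 of 2 arrays also leaves less to measure spread with. A lost call therefore does not show that it rested on that array. The median difference over all genes was -0.15, made of a median of 0.12 in the caput and -0.01 in the duct. Of the 11407 genes, 6917 had a difference below 0 and 4490 above. With each array centred on its median, 5241 of 11428 lay below 0 and 6187 above. With each array centred on its median, 356 genes were higher and 257 lower (58.1% higher, against 33.9% as deposited), and with quantile normalization 257 and 331 (43.7%). With the arrays of equal treatment and number in both tissues as a block, 289 genes passed. Leaving out 1 caput array left 94 to 123 calls: 94 without sham 1, 123 without sham 2, 111 without castrated 1 and 97 without castrated 2. Without efferent duct sham array 1 there were 386, without sham array 2 there were 320, and without castrated arrays 1 and 2 there were 912 and 879. Of the 82 genes named here by rule and past the test, 31 kept their call with each of the 8 arrays left out in turn, 11 lost it without 1 or more caput arrays only, and 40 lost it without at least 1 duct array. No array left out changed the sign of any of the 82.

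The genes that moved in opposite directions were 19 that rose in the duct and fell in the caput and 35 that fell in the duct and rose in the caput. Oxtr, the oxytocin receptor, through which oxytocin acts on contraction of the tract, read 448 and 374 on sham and 1245 and 877 on castrated duct arrays. In the caput it read 419 and 496 on sham and 129 and 95.6 on castrated arrays. Oxtr rose 2.55-fold in the duct (limma adjusted p = 0.0184) and fell 4.10-fold in the caput (adjusted p = 0.00218). The difference was 3.39 (SE 0.331, adjusted p = 0.00395).

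Regulators of transcription were among them. Runx1, a transcription factor, went from 93.9 and 139 to 310 and 332 in the duct. In the caput it went from 141 and 119 to 50.5 and 35.7. Its difference was 3.10 (SE 0.346, limma adjusted p = 0.00593), and all 5 other probe sets had the same sign. Hopx, a homeodomain protein that binds no DNA itself, read 126 on both sham and 344 and 304 on castrated duct arrays, against 1819 and 1624 on sham and 517 and 580 on castrated caput arrays (difference 3.01, SE 0.212, adjusted p = 0.00172). Gata3, a transcription factor linked to estrogen receptor alpha, moved the other way, from 42.2 and 37.5 to 25.8 and 0.745 in the duct and from 162 and 165 to 321 and 308 in the caput. Its duct change passed narrowly (adjusted p = 0.0439), and its difference of -1.92 (adjusted p = 0.0202) lost its call without either duct sham array or any caput array, with adjusted p up to 0.0823.

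Others of the 10 with the largest differences were Sema3d, Pdzk1ip1, Parm1, Sectm1b and Hacd4. Sema3d, a secreted guidance protein, read 59.9 and 64.2 on sham and 118 and 130 on castrated duct arrays, and 66.9 and 68.0 on sham against 16.2 and 15.8 on castrated caput arrays. Pdzk1ip1, a small membrane protein that binds PDZ domains, went from 230 and 250 to 35.4 and 39.6 in the duct and from 650 and 681 to 1350 and 1206 in the caput (difference -3.62, SE 0.207, adjusted p = 0.00102). The arrays of each group lay close together for both genes, and both kept their calls with each array left out. Parm1, a mucin-like membrane protein described in the prostate as androgen-regulated, fell from 918 and 1172 to 357 and 231 in the duct and rose from 87.3 and 89.5 to 220 and 198 in the caput. Sectm1b, a secreted and transmembrane immune protein, fell from 162 and 213 to 45.7 and 42.5 in the duct and rose from 39.6 and 43.9 to 84.2 and 70.7 in the caput. Hacd4, a dehydratase of very long fatty acid synthesis, fell from 159 and 131 to 85.0 and 55.3 in the duct and rose from 261 and 196 to 707 and 882 in the caput. Its call was lost without caput castrated array 2 (adjusted p = 0.0526).

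The 2 genes with the largest opposite differences had low duct levels. C1qtnf9, a secreted relative of adiponectin, read 374 and 436 on sham and 10.4 and 17.0 on castrated caput arrays, but only 20.4 and 24.1 on sham and 45.8 and 33.3 on castrated duct arrays. Its difference was 5.43 (SE 0.277, adjusted p = 0.000672), with a duct change that passed narrowly (adjusted p = 0.0481). Cttnbp2, which binds cortactin, went from 18.6 and 60.0 to 135 and 127 in the duct and from 408 and 353 to 39.9 and 52.9 in the caput. Its 1 other probe set had the opposite sign, and its difference of 5.01 lost its call without caput castrated array 1, caput castrated array 2 or caput sham array 1 (adjusted p up to 0.0563). Of the 54 opposite genes, 32 were still called in both tissues in opposite directions with centred arrays, 17 without efferent duct sham array 2, 23 with efferent duct sham 1 and castrated 2 alone, and 13 to 39 over all the arrays left out in turn.

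**Figure D3:**
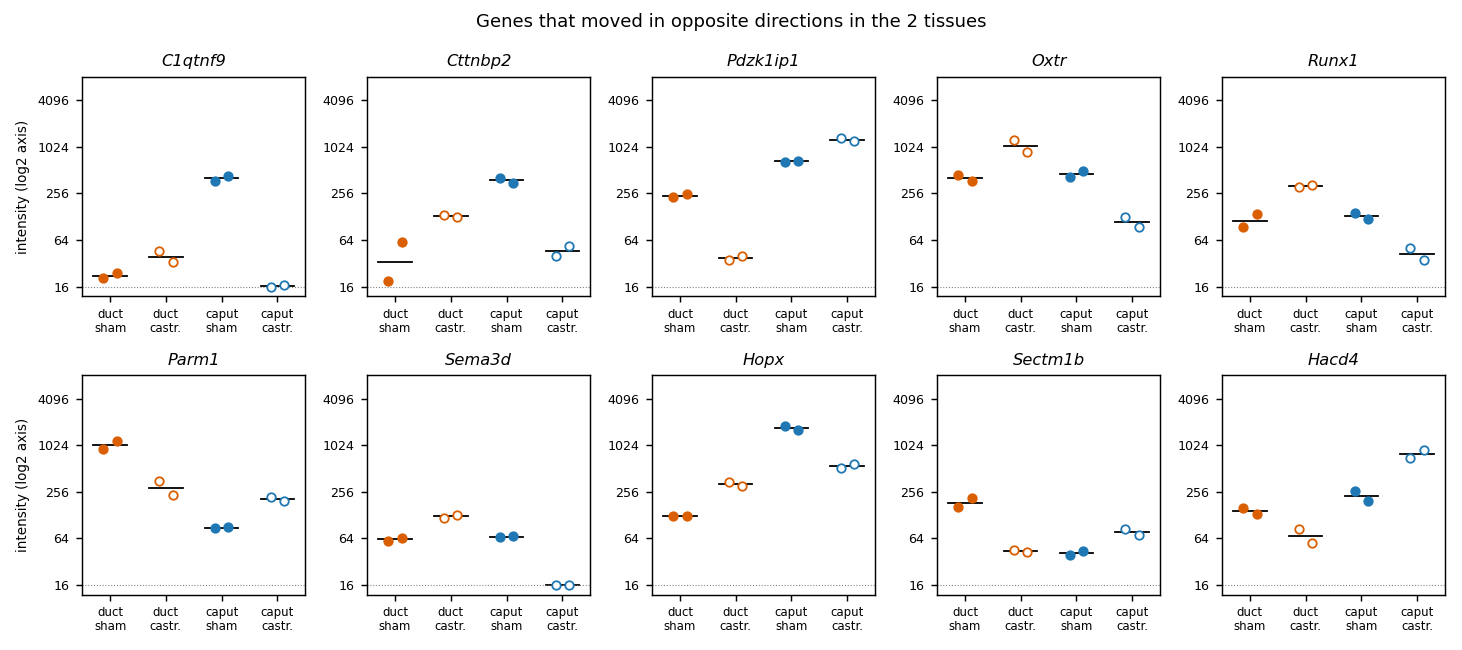
Intensity (log2 axis, values under 16 drawn at 16) on each of the 8 arrays for the 10 genes with the largest differences among those that moved in opposite directions; filled points are sham, open points castrated, orange efferent duct, blue caput, and black lines the mean of the 2 log2 values. The genes were chosen for opposite changes, so in every panel the castrated points lie above the sham points in 1 tissue and below them in the other.

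The promoters of the 10 opposite genes with the largest differences were searched for the estrogen receptor, androgen receptor and ETS letters given below. The ETS letters were in a promoter of Runx1 and in that of Sema3d, and the androgen receptor letters in none. C1qtnf9, Cttnbp2, Hopx, Parm1 and Pdzk1ip1 held none of the letters. The promoters of Oxtr, Hacd4 and Sectm1b each held the letters AGGTCA or its reverse complement TGACCT, the half-site of estrogen receptors and other nuclear receptors. They are shown for that reason (capitals). The 250 bases before the gene start are printed 5′ to 3′ from RefSeq's GRCm38.p6 promoter table, all 3 from the minus strand.
Oxtr (chr6:112489826-112490075): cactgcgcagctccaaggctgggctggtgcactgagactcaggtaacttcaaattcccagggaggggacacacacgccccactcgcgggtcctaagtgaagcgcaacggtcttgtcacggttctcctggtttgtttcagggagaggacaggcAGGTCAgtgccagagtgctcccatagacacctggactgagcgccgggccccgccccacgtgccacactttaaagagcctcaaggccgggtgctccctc
Hacd4 (chr4:88438916-88439165): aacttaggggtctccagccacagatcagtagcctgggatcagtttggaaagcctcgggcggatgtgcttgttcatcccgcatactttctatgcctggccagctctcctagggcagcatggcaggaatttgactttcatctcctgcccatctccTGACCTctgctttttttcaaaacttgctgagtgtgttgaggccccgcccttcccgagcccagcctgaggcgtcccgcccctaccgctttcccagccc
Sectm1b (chr11:121063570-121063819): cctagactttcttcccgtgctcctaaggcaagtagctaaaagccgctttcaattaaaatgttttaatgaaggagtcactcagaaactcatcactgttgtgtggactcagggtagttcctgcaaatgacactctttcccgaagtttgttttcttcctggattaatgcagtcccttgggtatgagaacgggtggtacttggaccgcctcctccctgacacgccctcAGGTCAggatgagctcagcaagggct
The half-site began 98, 97 and 26 bases before the gene start, in that order. Over windows of 300 bases (250 before to 50 after the start), these letters were found on either strand in 11.8% of the 51 promoters matched to 39 of the 54 opposite genes, 19.2% of 172 for genes called in the duct only, 11.0% of 465 for genes called in the caput only and 12.4% of 11859 for all genes tested. The letters AGAACA or TGTTCT, the half-site of androgen and glucocorticoid receptors, were in 9.80%, 18.6%, 13.5% and 12.4% of them in the same order, and the ETS core CCGGAA or TTCCGG in 9.80%, 12.2%, 14.2% and 26.5%. A match is a description of the letters, not a binding site.

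Of the 253 genes with a difference above 0, 171 fell in the caput and were not called in the duct. Adam28, a disintegrin and metalloprotease of the caput epithelium, read 3431 and 3557 on sham and 40.2 and 45.6 on castrated caput arrays. In the duct it read 12.0 and 36.5 on sham and 24.4 and 8.75 on castrated arrays, so it lay near the floor there in both groups. It fell 81.6-fold in the caput, and the difference was 6.06 (SE 0.529, limma adjusted p = 0.00346). P4ha2, a subunit of collagen prolyl hydroxylase, Pla2g5, a secreted phospholipase, and Obp2a, a lipocalin, had the same form, with caput levels 36.3-fold, 22.2-fold and 14.3-fold lower after castration and duct levels under 50 on every array. The signalling genes Syk, a tyrosine kinase, Inpp5d, a lipid phosphatase, Sdcbp2 and Shc4 did so too, with differences of 3.42 to 3.54. For such genes the difference says little more than the caput change: 67 of the 747 had means under 32 in both duct groups. St3gal2, a sialyltransferase, was measured in both tissues, with 93.3 and 98.9 on sham and 134 and 172 on castrated duct arrays, against 1253 and 921 and then 92.0 and 103 in the caput. Its duct change of 0.66 did not pass (limma adjusted p = 0.0905). Among the 15 largest, Elovl4, a fatty acid elongase, lost its call (difference 3.39, adjusted p = 0.0217) without any of the 4 caput arrays (adjusted p up to 0.0928).

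Genes that report on fibroblast growth factor and ERK signalling, which luminal factors from the testis drive in the initial segment, moved both ways in the caput. Of 17 tested genes of that list, 5 had a higher and 1 a lower difference past the test (35.3%, against 6.55% of all genes). Their median was 0.42 against -0.15 over all genes. None passed limma's test in the duct itself, where 5 had an unadjusted p under 0.05. In the caput 5 fell and 4 rose (8.14% and 14.5% over all genes). Etv5, an ETS transcription factor induced by ERK, read 75.2 and 110 on sham and 75.5 and 104 on castrated duct arrays, values that overlap fully, and went from 1429 and 1385 to 90.3 and 70.0 in the caput, 17.7-fold lower (difference 4.11, SE 0.348, adjusted p = 0.00345). Dusp6, the phosphatase that switches ERK off, read 467 and 495 and then 533 and 588 in the duct, and 813 and 615 and then 133 and 130 in the caput (difference 2.65, SE 0.243, adjusted p = 0.00365). Both kept their calls with each array left out. Dusp4, Ros1 and Spred1 passed with differences of 2.38, 1.35 and 1.00, and Fgfr2, a receptor of the pathway, with -0.93. Dusp4 lost its call without either duct sham array or any caput array (adjusted p up to 0.166), and Ros1 without efferent duct castrated array 1, sham array 1 or any caput array (up to 0.150). Spred1 lost its call without efferent duct castrated array 2, either duct sham array or any caput array (up to 0.153), and Fgfr2 without either duct sham array or any caput array (up to 0.130). Of the 5 that fell in the caput, Dusp5 did not pass the difference test (1.33, limma adjusted p = 0.103), and Spred1 was not among these 5.

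The largest differences below 0 belonged to genes that fell in the duct and did not pass in the caput. Defb11, a beta-defensin, read 1576 and 1397 on sham and 16.2 and 0.499 on castrated duct arrays, and 75.9 and 149 and then 119 and 131 in the caput. Its castrated duct level was at the floor, so it was at least 92.1-fold lower there with values under 16 set to 16, while the caput arrays overlapped (difference -6.76, SE 0.409, adjusted p = 0.00118). Defb2 read 1396 and 1088 on sham and 38.0 and 1.47 on castrated duct arrays, and 835 and 1490 and then 2932 and 1954 in the caput. It was at least 50-fold lower in the castrated duct with values under 16 set to 16, and its caput change of 1.10 did not pass (adjusted p = 0.119). Odam, a secreted protein of mineralizing and other epithelia, read 507 and 293 on sham and 16.2 and 17.2 on castrated duct arrays against 58.7 to 80.4 over the 4 caput arrays. These 3 kept their calls with each array left out, also with efferent duct sham 1 and castrated 2 alone. Of 7 tested beta-defensins of the list, which does not hold Defb11, 2 passed with a lower difference and none with a higher one, and 5 did not pass; without efferent duct castrated array 1 the number past the test was 4. The second, Defb1, fell in the duct from 452 and 654 to 158 and 88.6 and lost its call without efferent duct sham array 2 or any caput array (difference -2.43, adjusted p = 0.0239, up to 0.0938).

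**Figure D4:**
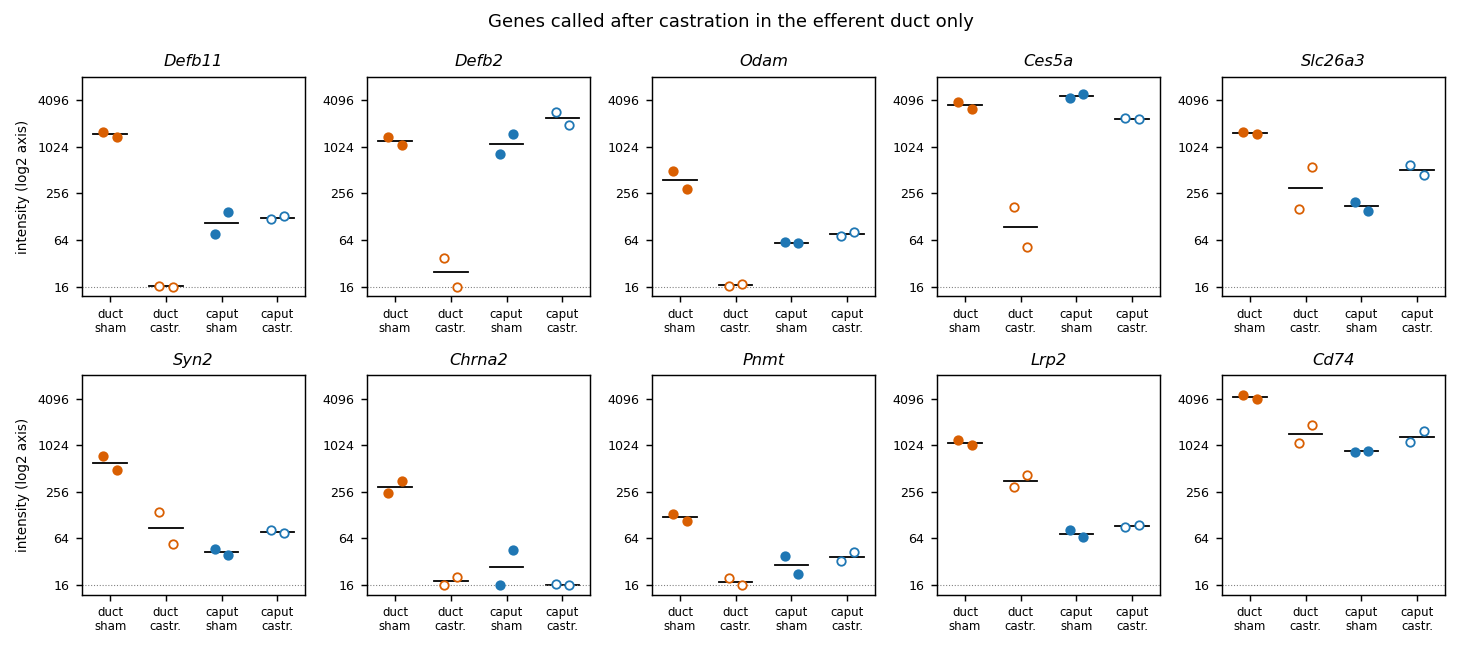
Intensity (log2 axis, values under 16 drawn at 16) on each of the 8 arrays for the 8 genes with the largest differences among those called in the efferent duct only, with Lrp2 and Cd74; filled points are sham, open points castrated, orange efferent duct, blue caput, and black lines the mean of the 2 log2 values. Defb11 fell from 1576 and 1397 to the floor in the duct while its caput arrays stayed between 75.9 and 149.

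Ces5a, Syn2, Pnmt and Chrna2 were also called in the duct only. Ces5a, a secreted carboxylesterase, fell from 3964 and 3204 to 170 and 52.1 in the duct, 37.8-fold, and read 4433 and 4945 and then 2405 and 2370 in the caput, where the change of -0.97 did not pass (adjusted p = 0.179). Syn2, a synapsin, fell from 748 and 484 to 141 and 54.4, with 3 of its 5 other probe sets of the same sign. Pnmt, the enzyme that makes adrenaline, fell from 132 and 108 to 19.4 and 11.8, and Chrna2, a nicotinic receptor subunit, from 251 and 355 to 11.9 and 20.4. The calls of Ces5a (difference -4.27, adjusted p = 0.0169) and Syn2 (-3.66, 0.0186) were lost without efferent duct sham array 1 or any caput array (adjusted p up to 0.0716 and 0.0759), that of Pnmt (-3.13, 0.00959) without caput castrated array 2 (0.0519), and that of Chrna2 (-3.31, 0.0286) without either duct sham array, efferent duct castrated array 1 or either caput castrated array (up to 0.105). Only 37 of the 152 duct-only genes rose in the duct. Among them, chosen after their values were seen, Slc13a5, a citrate transporter, went from 67.0 and 52.8 to 318 and 325 (difference 2.56, adjusted p = 0.00562), and Mmp12, the macrophage metalloelastase, from 16.8 and 15.6 to 110 and 85.6 (difference 2.36, adjusted p = 0.0142). Their caput changes of -0.12 and 0.21 did not pass, and Mmp12 lost its call without either caput sham array (up to 0.0623).

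Transport of ions, water and proteins is the main work of the efferent duct epithelium. Of 17 tested transport genes, 1 had a higher and 4 a lower difference past the test (29.4%, against 6.55% of all genes). Their median was -0.51. Slc26a3, a chloride/bicarbonate exchanger, read 1597 and 1500 on sham and 163 and 570 on castrated duct arrays and 198 and 153 and then 591 and 450 in the caput. The caput rise of 1.57 did not pass (limma adjusted p = 0.0631). The difference of -3.91 (limma adjusted p = 0.0264) lost its call without either duct sham array or any caput array. Aqp1, the water channel, fell from 497 and 513 to 116 and 155 in the duct, 3.77-fold, against 370 and 464 and then 279 and 252 in the caput (difference -1.27, adjusted p = 0.0418), and lost its call without efferent duct castrated array 1, either duct sham array or any caput array (up to 0.146). Kcnq1, a potassium channel, differed by -1.47 through a caput rise and lost its call without any of the 4 caput arrays (up to 0.0705). Slc4a4, the sodium bicarbonate cotransporter, was the higher one: it read 1950 and 1895 and then 2076 and 2493 in the duct and fell from 646 and 580 to 185 and 189 in the caput (difference 1.95, SE 0.215, adjusted p = 0.00567).

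Of 20 tested endocytosis genes, 0 had a higher and 2 a lower difference (4 genes passed without efferent duct castrated array 2), and the median of 0.09 turned to -0.10 with quantile normalization. Lrp2, megalin, the large receptor of the apical membrane, fell from 1205 and 1024 to 299 and 418 in the duct, 3.14-fold, and read 81.4 and 67.0 and then 90.5 and 96.1 in the caput (difference -1.99, SE 0.290, adjusted p = 0.0148). Its call was lost without any of the 4 caput arrays. Stra6, the receptor for retinol-binding protein, rose from 36.9 and 39.8 to 142 and 162 in the caput and lay at about the floor in the duct (difference -2.01, adjusted p = 0.00504). Slc9a3 could not be tested because both its castrated caput values were under 16; in the duct it went from 507 and 513 to 19.1 and 81.3.

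The largest group by pattern that had a lower difference was 302 genes that rose in the caput and did not pass in the duct. Cltrn, collectrin, a chaperone of amino acid transporters, rose from 20.3 and 37.8 to 366 and 400 in the caput, 13.8-fold, and read 433 and 403 and then 508 and 553 in the duct (difference -3.44, SE 0.384, adjusted p = 0.00593). Cpn1, the catalytic subunit of carboxypeptidase N, rose from 29.6 and 55.0 to 421 and 491 in the caput and lay between 25.9 and 41.0 in the duct (difference -3.20, adjusted p = 0.0121). Tmem45b, a membrane protein, rose from 41.4 and 68.4 to 289 and 304 in the caput (difference -3.27, adjusted p = 0.0180). Cltrn kept its call with each array left out, Cpn1 lost it without either caput castrated array (up to 0.0607), and Tmem45b without efferent duct sham array 2, caput sham array 1 or either caput castrated array (up to 0.0781). Kit, a receptor tyrosine kinase and the 1 gene past the test among 6 of clear and narrow cells, rose from 215 and 155 to 549 and 488 in the caput (difference -2.12, adjusted p = 0.0171) and lost its call without efferent duct sham array 2, caput sham array 2 or either caput castrated array (up to 0.0723). Tfcp2l1, a transcription factor, differed by -1.95, with both its other probe sets of the opposite sign, and lost its call without any caput array (up to 0.0857).

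Some genes moved the same way in both tissues by different amounts. Lcn5, the retinoic acid-binding lipocalin, fell from 1393 and 2536 to 42.2 and 2.20 in the duct, 72.3-fold with the floor, and from 11767 and 12020 to 2215 and 2289 in the caput, 5.28-fold. Its difference was -3.78 (SE 0.632, limma adjusted p = 0.0204). The call was lost without any caput array. It was also lost without efferent duct sham array 2, which carried caput transcripts that sham array 1 lacked (difference then -3.34). Lcn12, another lipocalin, did the reverse, from 153 and 147 to 17.6 and 8.95 in the duct and from 2003 and 1773 to 42.5 and 51.0 in the caput, 40.5-fold (difference 2.18, SE 0.223, adjusted p = 0.00466). Cuzd1, a secreted zona pellucida-domain protein, fell 7.33-fold in the duct and 2.03-fold in the caput (difference -1.85, adjusted p = 0.0108), with its call lost without caput castrated array 1 or either caput sham array (up to 0.0610). The secretory list as a whole had 13 tested members of 21 measured, 2 higher, 3 lower and 8 not past the test. That is 38.5% called, against 6.55% of all genes. Its median of 0.23 was -0.16 with quantile normalization.

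Other genes of that pattern were not secretory. Actg2, smooth muscle gamma-actin, fell from 4982 and 4426 to 210 and 178 in the caput, 24.2-fold, and from 295 and 375 to 88.7 and 67.4 in the duct, 4.30-fold (difference 2.50, SE 0.287, adjusted p = 0.00670). Cad, the enzyme of the first steps of pyrimidine synthesis, fell 21.7-fold in the caput, from 3248 and 3565 to 167 and 147, and 9.63-fold in the duct, from 259 and 313 to 32.8 and 26.7 (difference 1.17, adjusted p = 0.0410). The other 22 tested genes of its list, which holds ribosome biogenesis too, did not pass. Cad's call was lost without efferent duct castrated array 1, either duct sham array or any caput array (up to 0.146). Chosen after their values were seen, Cd52, a small surface glycoprotein abundant in the epididymis, fell 44.3-fold in the duct and 12.3-fold in the caput (difference -1.85, adjusted p = 0.00719). Ptgds, the lipocalin-type prostaglandin D synthase, fell from 5900 and 5634 to 577 and 444 in the duct and from 5733 and 5653 to 1854 and 2249 in the caput (difference -2.03, adjusted p = 0.00906). Scg5, a secretory granule protein, rose from 105 and 77.5 to 353 and 283 in the duct and 14.9-fold in the caput (difference -2.09, adjusted p = 0.0106). Ptgds lost its call without caput castrated array 2 or caput sham array 1 (up to 0.0514) and Scg5 without any caput array (up to 0.0561).

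Hormone response genes did not share a direction. Of 26 androgen and glucocorticoid response genes, 3 were higher and 2 lower (19.2%, against 6.55% of all genes). Their median of -0.24 was -0.01 with centred arrays. Abcc4, an organic anion exporter, Odc1, the polyamine enzyme, and Dbi fell in the caput and not in the duct, with differences of 1.53, 1.10 and 1.06. Tmprss2, a membrane serine protease, and Ndrg1 rose there, with differences of -2.87 and -1.36. The calls of Abcc4, Odc1, Dbi, Tmprss2 and Ndrg1 were each lost without any of the 4 caput arrays and without 1 or more duct arrays: castrated array 1 and sham array 1 for Abcc4 (adjusted p up to 0.129), all 4 for Odc1 (up to 0.156), castrated array 2 and both sham arrays for Dbi (up to 0.153), castrated array 2 and sham array 2 for Tmprss2 (up to 0.118) and sham array 2 for Ndrg1 (up to 0.0887). Fkbp5, a textbook androgen target, fell in both, from 305 and 399 to 72.4 and 115 in the duct and from 1540 and 1715 to 602 and 557 in the caput; its difference of -0.44 had a 95% interval that held 0 and an adjusted p of 0.471.

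Of 18 estrogen response genes, 2 were higher and 1 lower (16.7%, against 6.55% of all genes). Gper1, the G protein-coupled estrogen receptor, fell from 161 and 137 to 29.0 and 23.6 in the caput and read 48.6 and 43.7 and then 63.3 and 85.6 in the duct (difference 3.18, SE 0.285, adjusted p = 0.00346), and kept its call with each array left out. Ccnd1, cyclin D1, differed by 0.98 and lost its call without efferent duct castrated array 1, either duct sham array or any caput array (up to 0.149). All 11 steroid receptor and metabolism genes tested had values below 0, against 6917 of 11407 over all genes. Their median was -0.76, and 2 of them passed (18.2%, against 6.55% of all genes). With centred arrays 8 of 11 lay below 0, against 5241 of 11428 over all genes. Esr1, estrogen receptor alpha, read 3818 and 3785 and then 3600 and 3647 in the duct and rose from 567 and 511 to 903 and 1065 in the caput (difference -0.93, SE 0.210, adjusted p = 0.0455). Its call was lost with each of the 8 arrays left out (up to 0.164), and that of Hsd17b11, a steroid dehydrogenase, of -1.21 without either duct sham array or any caput array (up to 0.106). Pgr, the progesterone receptor, did not pass (difference -0.24, adjusted p = 0.662).

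Of 17 cholesterol synthesis enzymes, 6 fell in the duct and 14 in the caput (5.07% and 8.14% over all genes). The difference lay above 0 for 15 of them (4490 of 11407 over all genes), with a median of 0.57. The difference itself passed for 1 of the 17 (5.88%, near the 6.55% of all genes). That gene was Tm7sf2, a sterol reductase, which read 42.0 and 36.6 and then 24.1 and 30.3 in the duct and fell from 502 and 458 to 63.4 and 70.9 in the caput (difference 2.30, SE 0.243, adjusted p = 0.00533). Of 29 genes of endoplasmic reticulum folding, 3 were higher and none lower (10.3%, against 6.55% of all genes). All 3 passed through a fall in the caput: Sdf2l1 (1.28, limma adjusted p = 0.0417), Creld2 (1.06, 0.0293) and Calr, the chaperone calreticulin (1.05, 0.0354). Creld2 and Calr lost their calls without either duct sham array or any caput array (up to 0.121 and 0.134), and Sdf2l1 without any duct array, either caput castrated array or caput sham array 1 (up to 0.135). None of 26 respiratory chain subunits passed limma's test of the difference, and 2 had an unadjusted p under 0.05.

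**Figure D5:**
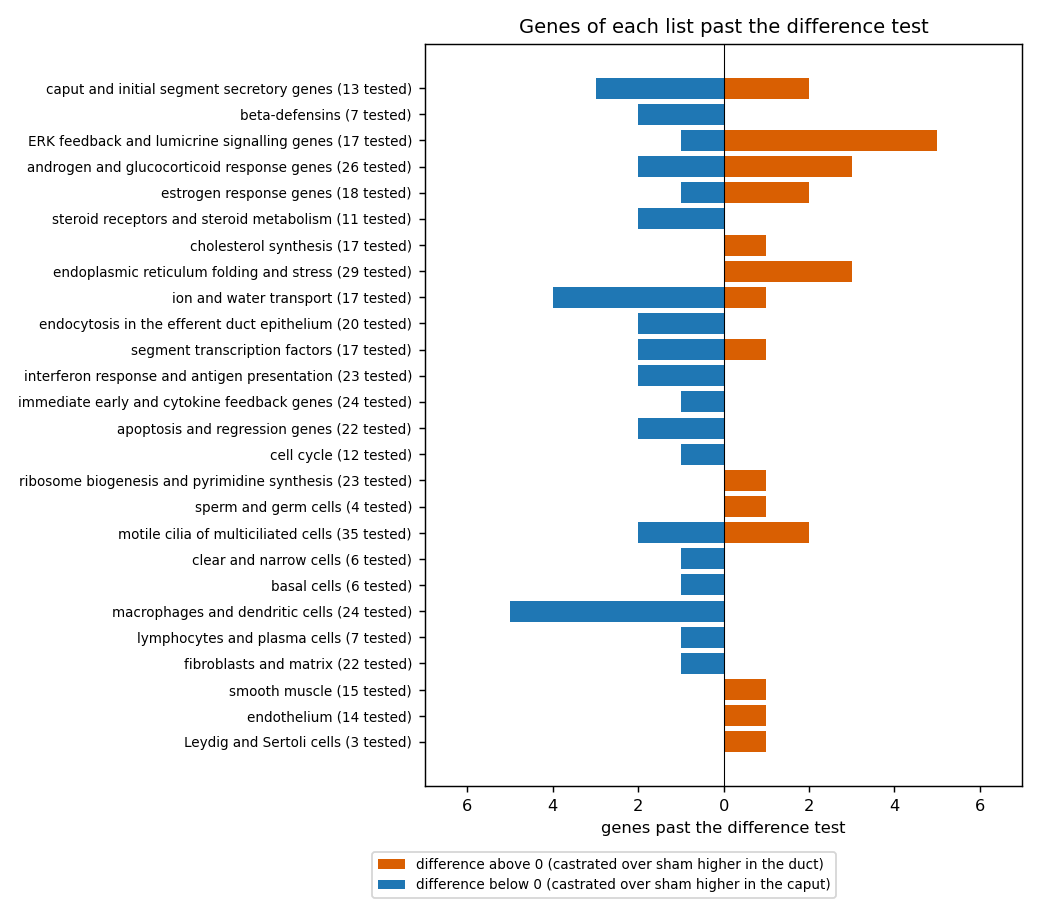
Number of genes of each fixed list past the test of the difference, to the right for a value above 0 and to the left for a value below 0; lists with no such gene are left out, and the number tested stands beside each name. Genes of ERK signalling lie mostly to the right (5 and 1) and macrophage genes to the left (0 and 5).

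Markers of other cell types moved too. Of 24 macrophage and dendritic cell genes tested, 23 lay below 0, against 6917 of 11407 over all genes. Their median was -0.93, and 5 passed, all lower (20.8%, against 4.33% lower over all genes). Cd74, the invariant chain of class II antigen presentation, read 4609 and 4041 on sham and 1103 and 1887 on castrated duct arrays and 846 and 865 and then 1119 and 1561 in the caput. It fell 2.99-fold in the duct (adjusted p = 0.0185), and the class II genes H2-Eb1 and H2-Ab1 3.02-fold each (adjusted p = 0.0269 and 0.0160). Aif1, a calcium-binding protein of macrophages, fell there from 74.6 and 76.9 to 26.2 and 25.9, and Cd14, the fifth gene, passed through a caput rise (difference -1.20, adjusted p = 0.0189), while the defining macrophage markers Adgre1 and Csf1r did not pass (differences of -0.20 and -0.72, adjusted p = 0.831 and 0.388). The list's summed intensity went from 15132 and 16815 to 8927 and 8116 in the duct and from 5990 and 5800 to 6964 and 9133 in the caput. Each of the 5 genes past the test lost its call without several of the arrays, among them either duct sham array. With 1 array left out in turn, the difference ranged from -2.60 to -1.82 for Cd74 and from -2.43 to -1.58 for H2-Eb1. It ranged from -2.25 to -1.43 for H2-Ab1, from -2.27 to -1.60 for Aif1 and from -1.28 to -1.12 for Cd14.

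Interferon response genes lay below 0 in 22 of 23, with a median of -0.83, and 2 passed (8.70%): Rtp4, which rose from 83.7 and 86.2 to 281 and 265 in the caput (difference -2.00, adjusted p = 0.00567), and Psmb8, an immunoproteasome subunit (-1.46, 0.0246), whose call was lost without efferent duct sham array 2 or any caput array (up to 0.0945). Over all genes 6917 of 11407 lay below 0, and 6.55% passed. In the caput 8 of the 23 interferon response genes rose (14.5% over all genes). In the duct none passed limma's test (7.94% over all genes), and 5 had an unadjusted p under 0.05. The number past the difference test was 7 without efferent duct castrated array 1 and 4 without castrated array 2. Lymphocyte and plasma cell genes summed to 553 and 792 and then 1913 and 1062 in the duct. In the caput they summed to 269 and 296 and then 818 and 1895. There 3 of 7 tested rose (14.5% over all genes). Their part in the interferon response values was not tested. Of 35 genes of motile cilia, 15 rose in the caput and 2 in the duct (14.5% and 2.88% over all genes). The difference passed for 4, 2 each way (11.4%, against 6.55% of all genes). Foxj1, the master regulator of motile cilia, read 82.4 and 96.7 and then 70.1 and 102 in the duct and rose from 43.0 and 42.1 to 123 and 118 in the caput (difference -1.58, SE 0.283, adjusted p = 0.0246). Its call was lost without efferent duct sham array 2 or any caput array (up to 0.0954). The summed cilia list read 17885 and 16836 and then 23766 and 25714 in the duct, and 1946 and 2170 and then 2679 and 3193 in the caput.

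Of 22 apoptosis and regression genes, 2 passed (9.09%, against 6.55% of all genes; 4 passed without efferent duct castrated array 2), both among the opposite genes: Tgfb2, a growth factor, fell from 620 and 727 to 287 and 384 in the duct and rose from 105 and 96.2 to 149 and 169 in the caput. Bid, which promotes mitochondrial apoptosis, fell from 185 and 175 to 93.6 and 83.3 in the duct and rose from 112 and 131 to 198 and 180 in the caput. Tgfb2 (difference -1.68, adjusted p = 0.0176) lost its call without efferent duct sham array 2 or any caput array (up to 0.0822), and Bid (-1.67, 0.0108) without caput sham array 1 or either caput castrated array (up to 0.0597). Of 24 immediate early genes, 4.17% passed, namely Gadd45g (-1.53, 0.0161; lost without any caput array, up to 0.0710), and 3 genes did without efferent duct castrated array 2. Of 12 cell cycle genes 8.33% passed, namely Mcm7, a replication helicase subunit that rose from 241 and 274 to 716 and 811 in the caput (-1.33, 0.0198; lost without efferent duct sham array 1 or any caput array, up to 0.0898).

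Endothelial genes lay above 0 in 12 of 14, with a median of 0.93, and Flt1, a receptor for vascular endothelial growth factor, was the 1 that passed (7.14%; 1.52, adjusted p = 0.0344; lost without efferent duct castrated array 1, either duct sham array or any caput array, up to 0.128). The markers Pecam1 and Cdh5 did not (adjusted p = 0.0609 and 0.235). Without efferent duct castrated array 2, 5 endothelial genes passed, and without castrated array 1 none did. Smooth muscle genes lay below 0 in 13 of 15, with a median of -0.90, and the 1 that passed (6.67%) was Actg2, above 0. Over all genes 4490 of 11407 lay above 0 and 6917 below. The shares past the test of both lists were near the 6.55% of all genes. Without efferent duct castrated array 1, 6 smooth muscle genes passed. Summed smooth muscle intensity read 13716 and 13219 and then 14732 and 11070 in the duct, and 17060 and 15791 and then 14260 and 13820 in the caput. None of 13 adipocyte genes passed limma's test of the difference, 1 had an unadjusted p under 0.05, and their sum was 20767 and 19262 and then 23570 and 26145 in the duct and 4966 and 4578 and then 2919 and 7657 in the caput. Of 4 sperm genes tested, 1 fell in the duct and 3 in the caput (5.07% and 8.14% over all genes). The difference passed for 1 of the 4 (25%), Tssk6, which fell in the caput (3.31), and the list had a median of 0.64. Tssk6 lost its call without efferent duct sham array 2, caput sham array 1 or either caput castrated array. With centred arrays 3 sperm genes were tested and none passed. Prm1, a protamine, went from 311 and 339 to 23.4 and 8.99 in the duct and from 889 and 242 to 46.6 and 22.3 in the caput, with a difference of -0.22 (adjusted p = 0.896). The part of these cell types in the gene differences was not tested.

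The rule left out 6787 genes, among them some with the largest changes, since a gene had to stay above the floor in all 4 groups; their values carry no test here. Adam7, a sperm-associated ADAM family protein, read 1381 and 1484 on sham and 13.2 and 4.96 on castrated duct arrays, and 8643 and 8372 and then 219 and 291 in the caput. Ltf, lactoferrin, read 509 and 429 and then 4.36 and 2.85 in the duct, while in the caput it went from 17.0 and 1.48 to 60.1 and 80.2, so the tissues moved apart as for the opposite genes. Rasl11a, a small GTPase, read 65.2 and 76.5 on sham and 944 and 1207 on castrated caput arrays and stayed under 22 on the duct arrays. These 3 were chosen after their values were seen. In all, 357 genes were under the floor in castrated duct alone and 201 in castrated caput alone. The sham counts were no smaller, with 360 genes under the floor in sham duct alone and 277 in sham caput alone.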

How the data were processed

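RNA from efferent duct and caput epididymis was measured on 16 one-colour Affymetrix arrays with 45101 probe sets, of which the 8 vehicle arrays entered the comparison. The deposited values are linear intensity; RMA is the only step the submitters' processing notes name, with no version, although values deposited on a linear scale with a 2% trimmed mean of 125 on every array are not the usual form of its output. Other steps and a genome build are not given in the sources used here. Values under 16 were set to 16, log2 was taken, and each gene was represented by its brightest probe set among the 34958 with 1 symbol (932 had several, 9211 none, in an annotation that can be old); the 11407 genes with all 4 group means above the floor were tested.

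1 limma 3.58.1 model (R 4.3.3) of 4 group means was fitted, with eBayes and Benjamini-Hochberg adjustment over all genes tested, at a threshold of 0.05; fold changes are of floored values, so they understate the change of dim genes. The method was tested on simulated data. Tables were made with Python 3.11.15. The floor, gene filter, scaling, probe set rule, variance trend, use of all 16 arrays, replicate blocks and single arrays left out were varied. The members and the 29 gene lists (474 of 706 entries tested) were chosen with earlier results of these data known. Genes were named by rule: among those past the test, the 15 largest differences each way, the 10 largest of opposite direction, the 8 largest called in the duct only, up to 4 of each list, and 14 tissue and hormone genes whatever their values.

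Whether array numbers pair the samples was checked through deviations from group means over 11407 genes. Duct and caput arrays of equal treatment and number correlated at -0.011 (castrated) and 0.041 (sham), and castrated and sham arrays of equal number at -0.14 in the duct and -0.072 in the caput. Since the series text says that both tissues came from each sample, the count with that block is given beside the main one.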

Additional observations from a re-analysis of the deposited data

Results flagged for a closer look

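The castration effect differed between efferent duct and caput, by limma's test of the difference itself, for 747 genes, and the named ones among them are given here with the duct minus caput difference on the log2 scale. Genes that rose in the duct and fell in the caput had differences of 5.43 for C1qtnf9, 5.01 for Cttnbp2, 3.39 for Oxtr, 3.10 for Runx1, 3.06 for Sema3d and 3.01 for Hopx. Genes that fell in the duct and rose in the caput had -3.62 for Pdzk1ip1, -3.09 for Parm1, -2.96 for Sectm1b, -2.88 for Hacd4, -1.92 for Gata3, -1.68 for Tgfb2 and -1.67 for Bid.

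The named genes called in the duct only, each lower there after castration, had -6.76 for Defb11, -6.74 for Defb2, -4.88 for Odam, -4.27 for Ces5a, -3.91 for Slc26a3, -3.66 for Syn2, -3.31 for Chrna2, -3.13 for Pnmt, -2.43 for Defb1, -2.21 for Cd74, -2.01 for H2-Eb1, -1.99 for Lrp2, -1.93 for Aif1, -1.84 for H2-Ab1 and -1.27 for Aqp1. Genes that moved the same way in both had 2.50 for Actg2, 2.18 for Lcn12, 1.33 for Ccno and 1.17 for Cad, which fell further in the caput, and -3.78 for Lcn5 and -1.85 for Cuzd1, which fell further in the duct.

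Genes that fell in the caput and did not pass in the duct had differences of 6.06 for Adam28, 5.07 for P4ha2, 4.86 for Pla2g5, 4.12 for St3gal2, 4.11 for Etv5, 3.62 for Obp2a, 3.54 for Syk, 3.54 for Inpp5d, 3.53 for Sdcbp2, 3.42 for Shc4, 3.42 for Bmyc, 3.39 for Elovl4, 3.31 for Tssk6, 3.18 for Gper1, 2.65 for Dusp6, 2.38 for Dusp4, 2.30 for Tm7sf2, 1.95 for Slc4a4, 1.81 for Cfap53, 1.53 for Abcc4, 1.52 for Flt1, 1.37 for Cyp11a1, 1.35 for Ros1, 1.28 for Sdf2l1, 1.10 for Odc1, 1.06 for Creld2, 1.05 for Calr and 0.98 for Ccnd1. Genes that rose in the caput and did not pass in the duct had -3.44 for Cltrn, -3.27 for Tmem45b, -3.20 for Cpn1, -2.87 for Tmprss2, -2.50 for Col15a1, -2.12 for Kit, -2.01 for Stra6, -2.00 for Rtp4, -1.95 for Tfcp2l1, -1.58 for Foxj1, -1.53 for Gadd45g, -1.47 for Kcnq1, -1.46 for Psmb8, -1.36 for Ccl5, -1.36 for Dynlrb2, -1.36 for Ndrg1, -1.33 for Mcm7, -1.21 for Hsd17b11, -0.99 for Cldn1 and -0.93 for Esr1. No cause of these differences was tested, and tissue and labelling kit cannot be told apart.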

How the results depend on the processing

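The 747 genes became 443 with a floor of 8 (153 higher, 290 lower) and 406 without a floor (139 and 267). With no filter on genes 485 were higher, with an intensity trend 384 were, and with centred arrays 257 were lower. With duct sham 1 and castrated 2 alone, an alternative chosen after seeing the data, 691 genes passed the difference test and 562 instead of 906 the duct test. Of the 747, 410 kept call and sign there, 496 of 737 still tested with centred arrays and 525 of 737 with quantile normalization. The duct count was 1360 with the trend and 1362 with all 16 arrays. With 1 array left out in turn, the difference count ranged from 94 to 912 (54 to 280 higher, 40 to 647 lower), the duct count from 306 to 1028 and the caput count from 732 to 3171. A fit without 1 array assumes that the lone array varies like the other groups. The cause of these changes was not tested.

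With the replicate number within each tissue as a block, 88 genes passed (53 higher, 35 lower), 290 in the duct and 1572 in the caput. With treatment and number across tissues as a replicate block, 289 passed (116 and 173), and the effects within a tissue could not be fitted. That block ended the calls of Slc26a3, Dusp4, Ros1, Abcc4, Ndrg1, Odc1, Ccnd1, Hsd17b11, Esr1, Sdf2l1, Creld2, Calr, Aqp1, Foxj1, Psmb8, Mcm7, Cad, Dynlrb2, Ccno, Cldn1, Aif1, Col15a1, Cyp11a1, Spred1, Fgfr2, Dbi and Cd14. With the efferent duct numbers crossed in the block within tissue, also chosen after seeing the data, 303 passed (122 higher, 181 lower), and 489 in the duct. Centred arrays ended the calls of Dusp4, Esr1, Aqp1, Dynlrb2, Cldn1, H2-Eb1, H2-Ab1, Ccl5, Col15a1 and Fgfr2. No alternative turned the sign of any of the 82 named genes past the test, and 25 of them were called in every alternative in which they were tested. Of these 82, 42 had other probe sets and 10 had at least 1 of opposite sign.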

Other observations

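The 8 arrays of castrated animals given hormone 12 hours before collection belong to no comparison above. Their values for 5 of the opposite genes, chosen after their values were seen, are given side by side with no test. The hormone duct arrays stood apart from the vehicle duct arrays, with a log2 ratio of 3′ to 5′ actin probe sets of 0.91 to 1.93 against 3.11 to 3.87 and a highest intensity of 3218 to 4517 against 14456 to 19967, so their levels were not set against each other. Sectm1b read 23.3 and 42.7 in the caput and 57.3 and 70.4 in the duct after testosterone propionate, and 522 and 396 and then 506 and 609 after estradiol. Oxtr read 89.8 and 142 in the caput and 198 and 381 in the duct after testosterone propionate, and 294 and 212 and then 1035 and 1005 after estradiol. Hacd4 read 237 and 281 in the caput and 115 and 78.7 in the duct after testosterone propionate, and 645 and 903 and then 78.1 and 88.5 after estradiol. Hopx read 1295 and 1387 in the caput and 569 and 529 in the duct after testosterone propionate, and 487 and 353 and then 347 and 334 after estradiol. Pdzk1ip1 read 703 and 654 in the caput and 165 and 115 in the duct after testosterone propionate, and 1161 and 1890 and then 60.9 and 213 after estradiol. All 3 genes whose promoters are printed above are among these 5, while the promoters of Hopx and Pdzk1ip1 held none of the letters searched. No link between promoter letters and hormone was tested.

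A few genes were on or off by single array without regard to group. BC018473 read 293 and 8.48 on the sham duct arrays and 2.77 and 809 on the sham caput arrays. Rbm45 read 391 and 68.9 on the sham duct, 476 and 74.9 on the castrated duct and 420 and 11.6 on the sham caput arrays. Spint4 read 9.80 and 2925 on the sham caput arrays, and Zfp945 229 and 22.2 on the castrated caput arrays. These were chosen after their values were seen.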
